A study of Mus musculus with 178 samples.

Results

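The samples described here were the 44 whole-blood RNA-seq libraries drawn on Day 4, before the first dose of antibody against PD-1, out of 178 libraries of the series. Their groups were taken from the labels: 15 came from mice labelled responders (library numbers 1 to 15) and 29 from mice labelled non-responders (library numbers 16 to 44), the latter including mice with stable disease. All mice were C57BL/6J, aged 6 to 8 weeks at the start, and all carried orthotopic tumors of 4MOSC1, a carcinogen-induced mouse oral squamous carcinoma line injected into the tongue or the buccal mucosa. Every mouse later received the same anti-PD-1 treatment, so the groups share strain, tumor line, treatment and day, and differ in the later course of the tumor. Response was graded afterwards from tumor size, so that the label describes what happened after the Day 4 bleed. Each library came from a separate mouse, as its tag number shows. The mouse of non-responder 16 is labelled a responder in its Day 17 library and a non-responder on the other days; without it 489 genes were higher and 46 lower in the test given below. Whether the tongue or the buccal mucosa was injected is not given in the labels. The question of the comparison was whether blood taken before immune checkpoint blockade (ICB) already differed between mice that would and would not respond.

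Whole blood holds far more red cells than white cells. Mature mouse red cells keep no nucleus, but reticulocytes, the young red cells that have just left the marrow, still carry globin mRNA and the messages of haem synthesis, the membrane skeleton and organelle clearance. White cells, among them B cells, T cells, neutrophils and monocytes, supply the immune messages for which such blood is usually sequenced. In bulk blood, fewer cells of a type and less RNA per cell cannot be told apart, and each gene is measured as a share of a mixture, so that more red cell RNA and less white cell RNA can give the same ratio.

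Total counts per library ranged from 37027981 to 82208651, and between 14372 and 18532 genes had a count. Counting error is therefore small for the abundant genes and limits those of low count. The tags of the mice were of 4 digits (11 responders and 7 non-responders) or of 3 digits (4 responders and 22 non-responders), and the 2 tag series are therefore unequally shared between the groups. What a series stands for is not given in the labels. Ddx3y, Kdm5d, Uty and Eif2s3y, all Y-linked genes, had 0 counts in all 44 libraries. Xist, the RNA of the inactive X chromosome, had between 908 and 22719 counts in each. This is the pattern of female mice in all 44 libraries. The study states that both male and female mice were used, without saying which mice gave these libraries. Counts on the B cell, T cell, neutrophil, monocyte, platelet and red cell markers were found in these libraries, as blood should hold.

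Haemoglobin RNA took a larger share of the Day 4 libraries of responders. Counts on globin genes took 83.0% ± 4.12 (SD, n = 15) of a responder's library and 77.8% ± 5.21 (SD, n = 29) of a non-responder's. The lowest, median and highest shares were 75.4%, 83.8% and 87.8% in responders, and 68.7%, 79.4% and 87.4% in non-responders. The 2 groups overlapped over most of their range, but the low shares, under 75%, were all non-responders. The means differed by 5.22 percentage points, about the SD between non-responders (permutation test of the means, two-sided, 100000 resamples, p = 0.00208). Among mice with 3-digit tags the means were 84.0% ± 4.46 (SD, n = 4) and 77.1% ± 5.69 (SD, n = 22), a difference of 6.94 points (exact permutation test, two-sided, p = 0.0295). Among mice with 4-digit tags they were 82.6% ± 4.16 (SD, n = 11) and 80.0% ± 2.33 (SD, n = 7), and the difference of 2.62 points was not resolved (exact permutation test, two-sided, p = 0.148). As a share of TPM the globin genes took 94.4% ± 1.30 (SD) for responders and 92.7% ± 1.64 (SD) for non-responders (two-sided permutation test, p = 0.00244).

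**Figure D1:**
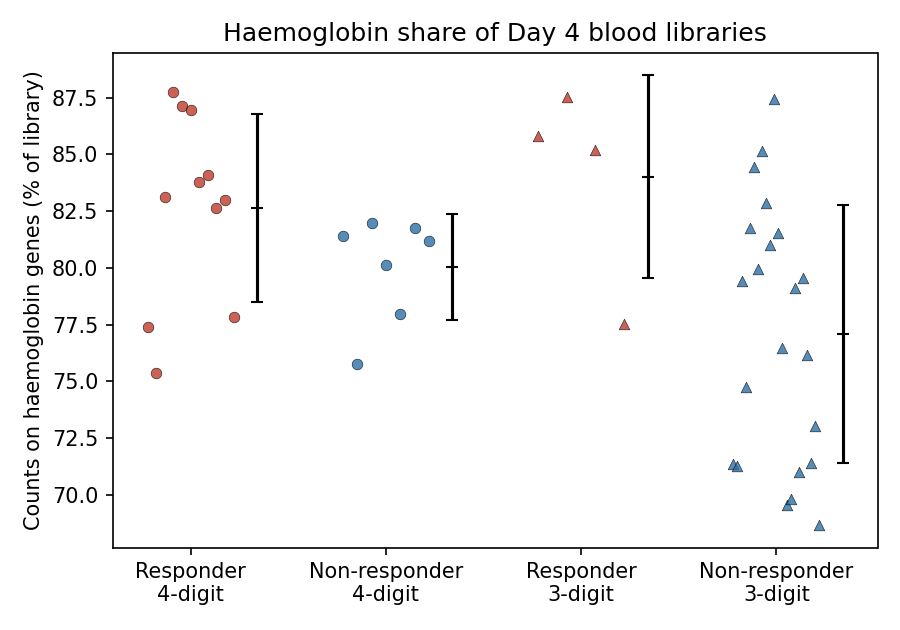
Percentage of counts on haemoglobin genes in each of the 44 Day 4 libraries (y axis), split by response and by the digits of the mouse's tag (x axis); bars give mean ± SD. Responders lie between 75.4% and 87.8%, and every library under 75% is from a non-responder with a 3-digit tag.

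Across genes, 493 of 12620 tested were higher in responders and 38 were lower. A call needed a difference of 1.5-fold or more together with an adjusted p no higher than 0.05. The p came from the quasi-likelihood F test of edgeR and was adjusted by Benjamini and Hochberg's method over every gene tested. These are 3.91% and 0.301% of the genes tested. Without the library of responder 4 the higher genes were 2.43% of those tested, and the lower genes numbered 68 without responder 12 and 59 without responder 14. Fold changes below are on counts scaled by TMM, which sets the bulk of genes to no change: the median log2 fold change over all genes tested was -0.01. On TPM, where all RNA including globin is the base, the same median was -0.27 on the log2(TPM + 1) scale. The added 1 shrinks differences of genes of low TPM, so this value does not show the full shift between the bases. The list of globin genes, which are abundant, went from a median of 0.98 to 0.03. Two-sided Wilcoxon tests on TPM called 0 genes higher and 1012 lower in responders, with the 1.5-fold threshold applied on that scale. At an unadjusted p under 0.05 they gave 43 and 10857 genes. Every direction given below is therefore relative to the bulk of genes tested.

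The genes higher in responders included most of those tested from a list of red cell genes. Of the 35 tested genes of that list, which covers haem synthesis, the red cell membrane and late erythroid maturation, 31 were called higher and 0 lower, with a median log2 fold change of 1.11 against -0.01 over all genes. Alas2 (chromosome X, 150547375 to 150570638, GRCm38) encodes the rate-limiting enzyme of haem synthesis in red cells. Its TMM-scaled CPM, counts relative to the library total times its TMM factor, were 5978, 16982 and 54243 (lowest, median and highest) in responders. In non-responders they were 4166, 9142 and 24151. The ranges overlapped, and 10 of 15 responders lay above the median of the non-responders. Its log2 fold change was 1.05 ± 0.26 (SE), with an adjusted p of 0.00732 in edgeR. In unscaled counts the medians of Alas2 lay close together, at 643714 in responders and 609478 in non-responders among mice with 4-digit tags, and at 573578 and 556242 among those with 3-digit tags.

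Ank1, Epb42 and Slc4a1, genes of the red cell membrane, were also called higher. Ank1, encoding ankyrin, which ties the membrane to the spectrin skeleton, had a log2 fold change of 1.31 ± 0.27 (SE), with medians of 25.1 CPM in responders and 10.8 CPM in non-responders. Epb42, encoding protein 4.2 of the same complex, had 8.74, 26.6 and 122.6 CPM in responders (lowest, median, highest). In non-responders it had 4.83, 13.1 and 29.8 CPM, a log2 fold change of 1.30 ± 0.27 (SE). Slc4a1, the anion exchanger of the red cell, rose by 1.23 on the log2 scale. These genes carried an adjusted p between 0.00300 and 0.00335 in edgeR.

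Other called genes of the list act late in red cell maturation, and those named here were chosen as examples. Trim10, an erythroid ubiquitin ligase, rose by 1.28, Ube2o, which drives the clearance of proteins from reticulocytes, by 1.17, and Bnip3l, needed for the removal of mitochondria, by 1.10 on the log2 scale. Bpgm, the enzyme that makes 2,3-bisphosphoglycerate, also rose by 1.10. The 4 tested members of the list that were not called were Gata1, Nfe2 and Tal1, transcription factors that platelets or their precursors also use, and Tfrc, the transferrin receptor. Their log2 fold changes were 0.53, 0.48, 0.22 and 0.08. Of the early precursor list, 4 of 11 tested genes were called higher, among them Urod, an enzyme of haem synthesis, and Tmod1, which caps actin filaments. Kit, Gata2 and Myb, genes of early progenitors, had log2 fold changes of -0.28, 0.22 and -0.15 and were not called.

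**Figure D2:**
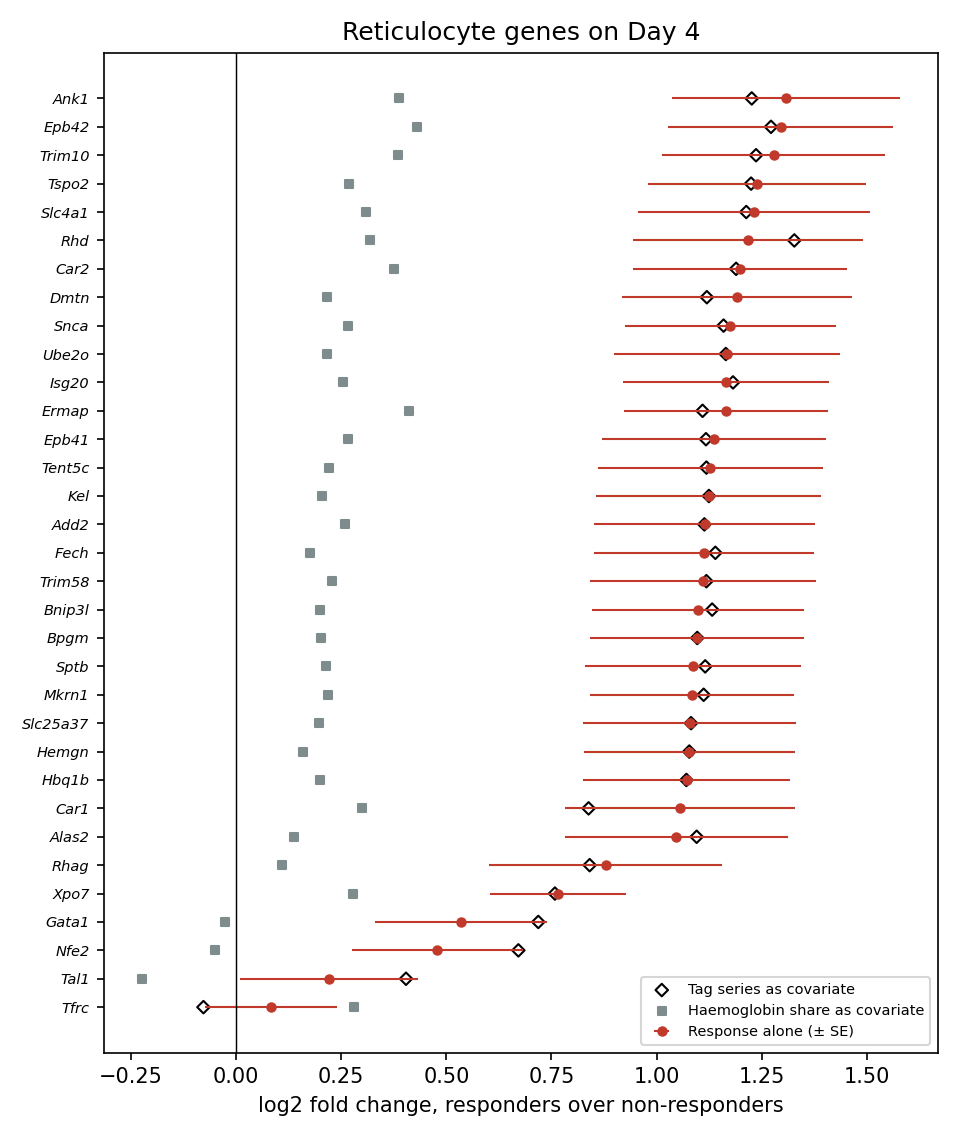
Log2 fold change of 33 tested reticulocyte genes, responders over non-responders (x axis), with response alone (circles, ± SE), with the tag series as a covariate (diamonds) and with haemoglobin share as a covariate (squares). Circles and diamonds lie together near 1.1 for the 29 called genes among them, and the squares lie closer to 0.

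Globin genes themselves had log2 fold changes between 0.81 and 1.10. Of 7 tested, Hbb-bt, Hbq1a and Hbq1b passed the test. Hba-a1 and Hbb-bs, an alpha and a beta globin gene, had 0.96 ± 0.35 (SE, adjusted p = 0.0903) and 0.98 ± 0.38 (SE, adjusted p = 0.117) in edgeR. Hba-a1 and Hba-a2, Hbb-bs and Hbb-bt, and Hbq1a and Hbq1b are near-identical pairs, so that the split of reads within a pair is uncertain, while their sum is not affected.

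Promoters of red cell genes are shown because these genes moved together and because GATA1, the master regulator of the red cell lineage, binds short GATA sequences. The letters AGATAA were searched on both strands of the 250 bases before each RefSeq gene start (GRCm38.p6). Of the 31 reticulocyte genes called higher, 18 had a promoter in the RefSeq table, and 5 of these 18 (27.8%) held the letters: Alas2, Epb42, Kel, Rhd and Trim10. They stood in 10.3% of all 27025 promoters and in 6.08% of the 9430 promoters of genes tested, and in 8.02% of the 349 promoters found for all genes called higher. The letters CCNCNCCC, of the kind bound by KLF1, another erythroid regulator, were searched in the same way. They stood in 9 of the 18 reticulocyte promoters (50%), against 63.1% of those of genes tested. A match is a description and shows no binding. Of the 5, Alas2 is shown as the enzyme above and Epb42 and Trim10 as the leading genes of the list. Capitals mark the match, which reads TTATCT here, the reverse complement of AGATAA, and each sequence stops before the first annotated transcript base.
Alas2, chrX:150547167-150547374, plus strand: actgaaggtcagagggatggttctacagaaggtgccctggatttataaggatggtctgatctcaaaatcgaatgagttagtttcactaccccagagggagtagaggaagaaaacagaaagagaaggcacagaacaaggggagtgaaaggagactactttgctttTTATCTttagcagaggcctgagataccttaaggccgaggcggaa
Epb42, chr2:121037073-121037127, minus strand: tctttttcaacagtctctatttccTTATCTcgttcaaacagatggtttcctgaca
Trim10, chr17:36869324-36869573, plus strand: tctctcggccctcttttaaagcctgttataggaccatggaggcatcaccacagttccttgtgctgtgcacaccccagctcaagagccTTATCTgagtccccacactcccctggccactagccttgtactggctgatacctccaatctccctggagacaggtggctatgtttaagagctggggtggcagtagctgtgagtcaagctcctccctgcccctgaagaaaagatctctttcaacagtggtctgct

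None of the 12 protein-coding genes of smallest p among those called higher, with Gm and Rik symbols left out, was in the red cell list. Mthfd2 (chromosome 6, 83305691 to 83325908), a mitochondrial enzyme of folate metabolism, had 3.75, 9.77 and 35.0 CPM in responders and 2.30, 4.77 and 13.6 CPM in non-responders (lowest, median, highest). Its log2 fold change was 1.25 ± 0.22 (SE), and 12 of 15 responders exceeded the non-responder median. Apol11b, an apolipoprotein L family member, had the largest fold change of the 12 leading genes, 1.51 ± 0.29 (SE) on the log2 scale, with 14 of 15 responders above that median. Ube2b, a ubiquitin-conjugating enzyme of DNA repair, rose by 1.21 ± 0.24 (SE), from a median of 91.1 to one of 204.7 CPM. Tceal8, Ypel3, Shld1, Atp5l, Cir1, Ccdc71l and Smim4 rose by 1.27, 0.97, 0.96, 0.96, 0.92, 0.88 and 0.76 on the log2 scale. Pkn2, a protein kinase, and Pim1, a survival kinase induced by cytokines, both rose by 0.65. All 12 had an adjusted p of 0.00300 in edgeR, close to that of the red cell membrane genes above.

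Several other lists held called genes, all of them higher, and their counts stand against 3.91% called higher over all genes tested. Of 78 tested subunits of the respiratory chain and ATP synthase, 16 were called, among them Atp5l, Cox7b (0.85), Cox6c (0.89) and Atp5k (0.81), with a list median of 0.25. Of 86 ribosomal proteins 7 were called, among them Rpl41 (0.86) and Rpl39 (0.66), also with a list median of 0.25. The tag series as a covariate gave 21 calls among the 86, against 4.84% of all genes tested, and a list median of 0.49. Of 31 proliferation genes 8 were called, and the list median was 0.11. They included Ccna2 (1.22) and Ccnb2 (1.04), both cyclins, Birc5 (0.79), and Mki67 (0.76), the Ki-67 antigen. Of 34 interferon-induced genes 6 were called, with a list median of 0.13. Rsad2, an antiviral enzyme also called viperin, rose by 1.24 ± 0.27 (SE), from a median of 287.9 to one of 693.9 CPM, and Isg15, a ubiquitin-like protein, rose by 1.03 ± 0.23 (SE). The other called members were Irf7 (0.86), Ifit1 (0.68), Oasl2 (0.61) and Oas3 (0.61). Of 21 genes of the integrated stress response 4 were called: Mthfd2, Slc7a5 (1.13), an amino acid transporter, Asns (1.03), asparagine synthetase, and Atf5 (0.60). Among 22 replication histone genes 2 were called, Hist1h2ae (1.24) and Hist3h2ba (0.81), with a list median of 0.44. The tag series as a covariate gave 7 calls among these 22, and a list median of 0.61. Dnajb6 (0.98) was the only call among 21 heat shock genes, Jund (0.77) among 24 immediate early genes and Cd59a (0.94) among 17 Fc receptor and complement genes. Of the 17, 3 were called with the tag series as a covariate. All these values are log2 fold changes.

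The genes called higher shared their relation to haemoglobin content among mice that did not respond. In the 29 non-responders alone, the level of 489 of the 493 genes correlated positively with haemoglobin share, with a median Spearman rho of 0.86, against 43.5% of all genes tested and a median of -0.08. Of the 38 genes called lower, 6 (15.8%) correlated positively, with a median rho of -0.11. The genes and the share come from the same libraries, and both move with the mixture of red and white cell RNA. Alas2 had r = 0.96 and rho = 0.96 over the 29 non-responders (permutation test, p = 1e-05 for each, the smallest that the permutations can give). Mthfd2 had r = 0.77 and rho = 0.83, and Ube2b r = 0.91 and rho = 0.93, at the same p. S100a8, a neutrophil gene, had r = 0.28 (permutation test, p = 0.137) and rho = 0.30 (p = 0.109). Cd79a, a B cell gene, had r = 0.38 (permutation test, p = 0.0412) and rho = 0.24 (p = 0.209), while the median rho over the 24 B cell genes was -0.10. In the 22 non-responders with 3-digit tags, r was 0.96 for Alas2, 0.76 for Mthfd2, 0.41 for S100a8 and 0.63 for Cd79a (adjusted p = 0.00223 for the last, permutation test). Without the 2 libraries farthest from the median share, r over all 29 was 0.96, 0.78, 0.29 and 0.36 for the same 4 genes. Of 12 such relations computed, the adjusted p was 1.5e-05 for the r of Alas2, Mthfd2 and Ube2b, 0.0494 for that of Cd79a and 0.137 for that of S100a8.

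**Figure D3:**
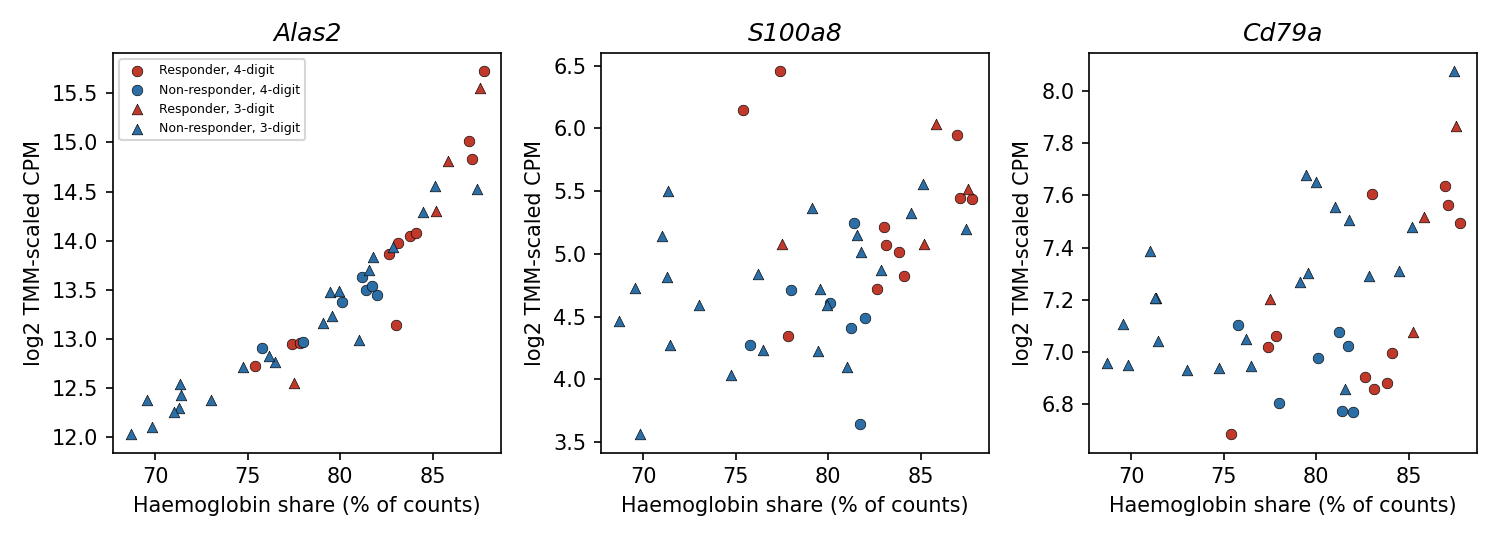
Log2 TMM-scaled CPM of Alas2, S100a8 and Cd79a (y axes) against haemoglobin share (x axes) in the 44 Day 4 libraries, coloured by response and shaped by tag series. Alas2 rises along a line that responders and non-responders share (r = 0.96 in non-responders), whereas S100a8 (r = 0.28) and Cd79a (r = 0.38) scatter more widely.

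With haemoglobin share as a covariate, no gene separated responders from non-responders. The edgeR test called 0 of 12620 genes (0%) in either direction, with 1116 genes at an unadjusted p under 0.05 and a smallest adjusted p of 0.141. The median log2 fold change of the 493 genes went from 0.94 to 0.22, and 489 of them kept a positive sign. That of the 38 lower genes stayed at -2.42, with all 38 negative and all 38 at an unadjusted p under 0.05 in this fit. The median of the reticulocyte list went from 1.11 to 0.23. Alas2 went from 1.05 to 0.14, Rsad2 from 1.24 to 0.33, Mthfd2 from 1.25 to 0.54 and Apol11b from 1.51 to 0.51. Haemoglobin share differed between the groups itself, so that a part of the response difference common to both cannot be told apart in this fit. The 7 libraries with a TMM scaling factor under 0.5 were 5 of responders and 2 of non-responders. Without them edgeR called 0 genes, with 819 higher and 612 lower at an unadjusted p under 0.05, and the haemoglobin difference was 3.83 points (permutation test, p = 0.0283). That selection was added after the data were seen.

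With the tag series as a covariate, 611 genes were called higher (4.84%) and 9 lower (0.0713%) in edgeR. Of the 493 genes, 459 were called again. All 493 kept their sign, and 491 had a positive log2 fold change within each series fitted alone. Alone, the 4-digit series (11 against 7) gave 0 called genes higher (0%), with 1686 higher at an unadjusted p under 0.05, and the 3-digit series (4 against 22) gave 0 (0%), with 1173. The reticulocyte list had a median log2 fold change of 0.88 in the 4-digit and 1.36 in the 3-digit series. The difference between the series was itself tested as an interaction in edgeR, which called 0 genes, with 336 at an unadjusted p under 0.05.

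White cell lists other than those of neutrophils and nonclassical monocytes held no called gene. Of 24 B cell genes 0 were called, and the list median was -0.06. Of the 24, 5 had an unadjusted p under 0.05, none of them higher in responders. At that p 1665 of all 12620 genes tested were higher and 945 lower. A positive log2 fold change was found for 2 of the 24. Cd79a, one of the 2 and a signalling chain of the B cell receptor, had 102.8, 134.8 and 233.3 CPM in responders and 109.1, 137.6 and 269.8 CPM in non-responders (lowest, median, highest), ranges that overlapped almost wholly. Ms4a1, a B cell surface protein, had a log2 fold change of -0.04 ± 0.07 (SE). Of 21 T cell genes 0 were called, with a median of -0.02. Cd3e, a chain of the T cell receptor complex, had -0.13 ± 0.06 (SE), and the co-receptors Cd4 and Cd8a had 0.06 ± 0.11 and -0.03 ± 0.05 (SE). None of the 25 cytotoxic and natural killer cell genes and none of the 22 checkpoint genes passed. Nkg7 and Gzmb, of cytotoxic granules, had 0.09 ± 0.12 and 0.05 ± 0.12 (SE). The call among 14 nonclassical monocyte genes was Cd36 (0.78 on the log2 scale), a fatty acid receptor that other blood cells also carry.

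Platelet and mitochondrially encoded genes lay above the bulk without a call. Of 24 platelet genes 0 were called, all 24 had a positive log2 fold change, and the list median was 0.39. It was 0.67 with the tag series as a covariate, where 1 gene was called, and -0.22 with haemoglobin share as a covariate. Pf4, platelet factor 4, had 0.36 ± 0.24 (SE). The 15 tested genes of the mitochondrial genome were all positive, with a median of 0.40, and 0 were called. With the tag series as a covariate 13 of the 15 were called higher and the median was 0.76, against -0.11 with haemoglobin share. In non-responders the median Spearman rho with haemoglobin share was 0.47 over the platelet genes and 0.46 over the mitochondrial ones.

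Receptors and regulators tied to the anti-PD-1 response held no called gene. Pdcd1, encoding PD-1 itself, ranged from 0.07 to 0.32 CPM in responders and from 0 to 0.47 CPM in non-responders, with a log2 fold change of -0.06 ± 0.29 (SE). Cd274, encoding its ligand PD-L1, had medians of 7.24 CPM in responders and 7.04 CPM in non-responders, a log2 fold change of 0.00 ± 0.07 (SE). Cxcr3, a chemokine receptor of effector T cells, had a log2 fold change of 0.31 ± 0.10 (SE) and an adjusted p of 0.0342 in edgeR, below the 1.5-fold threshold. Cxcr6, Cx3cr1 and Tbx21, which mark effector and memory cells, had -0.02, 0.29 and 0.15 and were not called. The class I and class II MHC lists, with 23 and 15 genes, also held 0 called genes.

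Of 21 tested genes of mature neutrophils 2 were called higher, against 3.91% of all genes tested: S100a8, a calcium-binding alarmin, and Stfa2l1, a cysteine protease inhibitor. The fit with the tag series as a covariate called 6 of the 21 higher, against 4.84% of all genes tested. Of 6 tested genes of the neutrophil granule list 0 were called without and 3 with the tag series as a covariate. S100a8 had 20.3, 37.1 and 87.8 CPM in responders and 11.8, 26.2 and 47.0 CPM in non-responders (lowest, median, highest). Its log2 fold change was 0.70 ± 0.16 (SE, adjusted p = 0.00356, edgeR), and 14 of 15 responders exceeded the non-responder median. With haemoglobin share as a covariate S100a8 kept 0.64 and Stfa2l1 kept 0.66, with adjusted p of 0.151 and 0.253. The median of the mature neutrophil list was 0.43 without and 0.36 with that covariate, and 17 of the 21 genes had an unadjusted p under 0.05 in that fit, as did 1116 of all 12620 genes. For the 18 classical monocyte genes the medians were 0.35 and 0.32, with 11 at an unadjusted p under 0.05 and 0 called. On log2(TPM + 1) the medians were -0.26 for the mature neutrophil list and -0.27 over all genes. Those of B and T cell genes were -0.76 and -0.63. The added 1 shrinks differences more for genes of lower TPM. Medians of lists of unlike level therefore cannot be set against each other on this scale. Ly6g, the surface antigen by which neutrophils are sorted, was under 1 CPM in every library and had 0.79 ± 0.26 (SE, adjusted p = 0.0528). Mrgpra2b, a G protein-coupled receptor gene, had 0.87 both without and with haemoglobin share as a covariate, and an adjusted p of 0.00335 and 0.141.

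**Figure D4:**
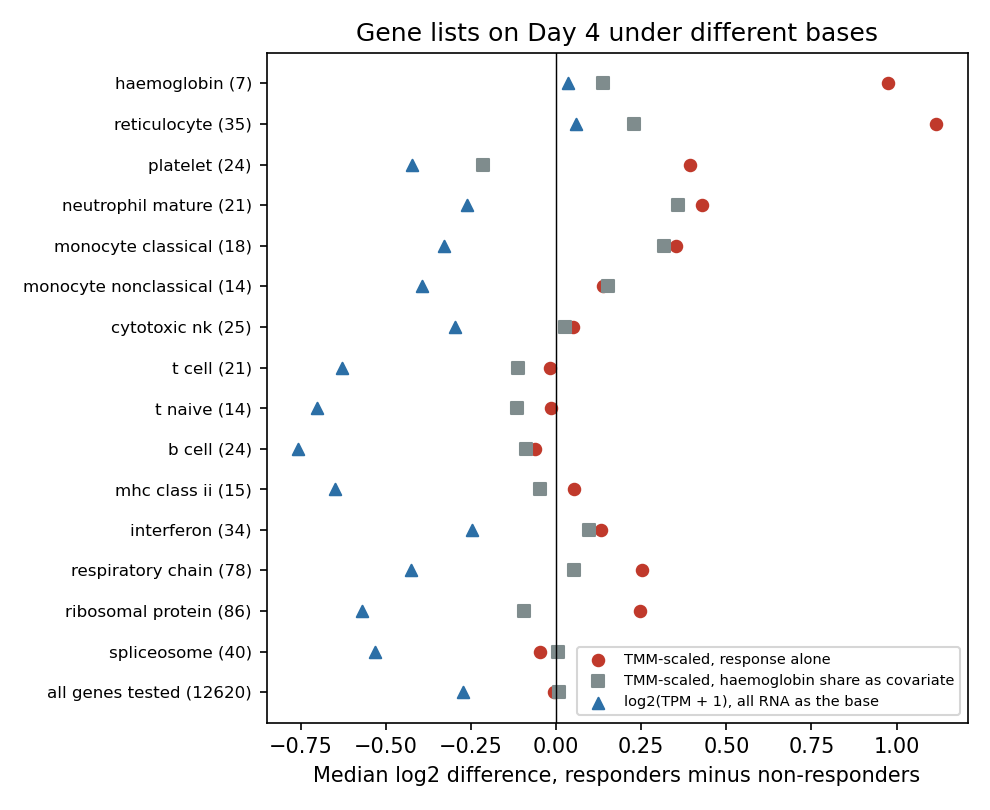
Median log2 difference between responders and non-responders over the tested genes of each list (number in parentheses), on TMM-scaled counts (circles), on the same with haemoglobin share as a covariate (squares) and on log2(TPM + 1) (triangles). The triangles of lists of unlike level are not comparable, as the added 1 shrinks differences of genes of low TPM. The haemoglobin and reticulocyte lists stand at 0.98 and 1.11 on the first scale, at 0.14 and 0.23 with the covariate and at 0.03 and 0.06 on TPM, and B and T cell lists stand near 0 on the first and at -0.76 and -0.63 on TPM.

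The 38 genes lower in responders were of low count, and most differed between the tag series. None of them was a member of any list used here, and epithelial genes among them, such as Epha2 and Muc1, stand outside the epithelium list. Slc28a3, a nucleoside transporter, led them with a log2 fold change of -3.97 ± 0.80 (SE, adjusted p = 0.00300, edgeR), with 0 CPM as the median of responders and 0.18 CPM as that of non-responders. Fam84a, Clca3b, Slc5a8 and Ankk1 had log2 fold changes between -3.16 and -3.26, Plekhs1 had -2.82, Rhpn2 -2.16 and Epha2, an ephrin receptor of epithelial cells, -1.84. Tjp1, a tight junction protein, fell by 1.51 and Plk2, a stress-induced kinase, by 0.80 on the log2 scale. Of the 38 genes, 37 averaged under 1 CPM. With the tag series as a covariate the median log2 fold change of the 38 went from -2.42 to -0.62, and 1 of them, AA414768, was still called. In that fit 32 of the 38 were lower in the 4-digit series at an adjusted p of at most 0.05, as were 813 of all 12620 genes (6.44%), with a median series difference of -5.46 on the log2 scale. With the 1.5-fold threshold added, 73 of all genes (0.578%) were called higher and 146 (1.16%) lower in the 4-digit series.

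On Day 4 the keratin genes Krt13, Krt4 and Krt6a showed the split by tag series without overlap. Krt13, the keratin of the oral lining, chosen after its values were seen, had 0 counts in all 18 libraries with 4-digit tags, 11 of responders and 7 of non-responders. With 3-digit tags it had 30, 64 and 99 counts in the 4 responders (lowest, median, highest) and 7, 127 and 283 in the 22 non-responders. Krt4, its partner, had 0 counts in all 18 libraries of the first series and between 1 and 36 in every library of the other. Krt6a behaved alike, with 0 counts against 4 to 48. Krt5 and Krt14 overlapped between the series: with 3-digit tags they had a count in 17 and 15 of the 22 non-responders, and with 4-digit tags in 0 and 1 of the 18 libraries. Muc1, an epithelial mucin among the 38 genes, had between 0 and 5 counts with 4-digit tags and between 5 and 81 with 3-digit tags. Cdh1 and Epcam did not show the split and had counts in every library of both series. Their medians in responders were 45 and 20 with 4-digit tags and 22.5 and 12.5 with 3-digit tags. In non-responders they were 53 and 18 with 4-digit tags and 70 and 27 with 3-digit tags. Dsp and Perp also had counts in both series. Of the 24 genes of the epithelium list 7 could be tested, and 0 of the 7 were called. Their median log2 fold change was -1.17, and -1.82 with haemoglobin share as a covariate, where 4 of the 7 had an unadjusted p under 0.05. It was 0.17 with the tag series as a covariate. Over all 24 genes the summed counts ranged from 137 to 604 in responders and 348 to 535 in non-responders with 4-digit tags. With 3-digit tags the sums were 286 to 677 and 381 to 1252. Whether epithelial RNA took part in the lower genes beyond this split was not tested. The split describes the Day 4 libraries. By Day 9 Krt13 had risen in 15 of 15 responders, those with 4-digit tags among them, and in 23 of 29 non-responders.

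**Figure D5:**
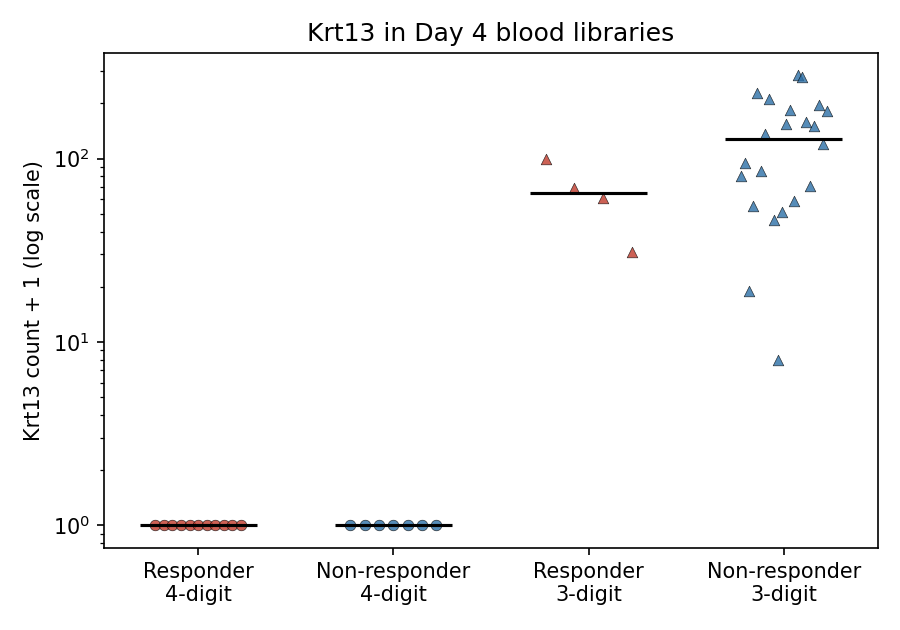
Krt13 counts plus 1 (y axis, log scale) in each Day 4 library by response and tag series (x axis); lines give medians. All 18 libraries with 4-digit tags have 0 counts, and all 26 with 3-digit tags have between 7 and 283.

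On Day 9, after treatment had begun, the haemoglobin difference was present again in the same mice. The share was 82.7% ± 3.27 (SD, n = 15) for responders and 78.2% ± 3.69 (SD, n = 30) for non-responders, a difference of 4.47 points (two-sided permutation test, p = 0.000280). Within the 4-digit series it was 1.61 points (exact permutation test, p = 0.276) and within the 3-digit series 4.98 points (exact permutation test, p = 0.0178). In edgeR 458 genes (3.63%) were called higher and 2 (0.0159%) lower in responders on Day 9, and 391 of the 493 Day 4 genes were among the former. Alas2 had a log2 fold change of 0.81 ± 0.16 (SE) and Mthfd2 of 0.87 ± 0.22 (SE) on Day 9, with adjusted p of 0.000119 and 0.00314 in edgeR. Pdcd1 had 0.95 ± 0.25 (SE) on Day 9, with an adjusted p of 0.00653 in edgeR, while its change from Day 4 to Day 9 differed between the groups by 0.72 ± 0.39 (SE, adjusted p = 0.984, limma). The Day 9 comparison was added after the data were seen, and its libraries come from the mice of Day 4 and 1 more.

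Within mice, the test without a covariate called no gene for a changed group difference from Day 4 to Day 9. Over the 44 mice with libraries on both days, limma called 0 of 12735 genes (0%) for a different change in responders and non-responders, with 625 at an unadjusted p under 0.05. Adding the tag series as a covariate gave 1 called gene, with 1810 of the 12735 at an unadjusted p under 0.05. The haemoglobin share changed by -0.31 ± 6.14 points (SD) in responders and 0.38 ± 6.51 points (SD) in non-responders (permutation test, p = 0.738). The median difference of the 493 genes was 0.79 on Day 4 and 0.78 on Day 9, on the log2 CPM scale. That of 37 of the genes lower on Day 4 went from -1.88 to -1.12, and 11 of the 37 had an unadjusted p under 0.05 for a different change, as did 609 of 12542 genes. The median change of these 37 from Day 4 to Day 9 was 2.97 in responders and 2.11 in non-responders, against 0.03 and 0.02 over all genes. Both sets were chosen by their Day 4 difference, which a second day need not repeat in full. In the edgeR test of Day 9 alone 0 of 36 of the lower genes were called, with a median log2 fold change of -0.49. S100a8 rose from Day 4 to Day 9 by a mean of 0.46 in responders and 1.02 in non-responders, the latter in 29 of 29 mice. The difference of these changes was -0.56 ± 0.22 (SE), with p = 0.0127 before and 0.984 after adjustment in limma. The median difference of the mature neutrophil list was 0.41 on Day 4 and 0.01 on Day 9, with 0 genes called for a different change.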

How the data were processed

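Blood RNA of the Day 4 mice had been made into polyadenylated RNA libraries with the SMARTer mRNA-Seq kit. The authors aligned reads to mm10, and their processing notes name STAR; the counting tool is not given in the sources used here. They deposited a table of estimated counts that need not be whole, rounded here before each test, and a table of TPM per gene symbol. All 55450 gene identifiers match GENCODE M21 (GRCm38), from which positions were taken. Members, gene lists and tests were chosen with earlier results of these data known. Groups, tag digits and days came from the labels, and 0 columns were left unused.

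Counts were tested with edgeR 4.0.16 (R 4.3.3; filterByExpr, TMM, quasi-likelihood F test), 15 responders against 29 non-responders, with no covariate. The SE is the log2 fold change divided by the root of F. TMM-scaled CPM use library totals times the TMM factor. Changes from Day 4 to Day 9 were tested with limma 3.58.1 on each mouse's difference of log2 CPM (prior count 1). Means were compared by permutation (100000 resamples; all regroupings within a tag series). The p-values measure the spread between mice. Both models were tested on simulated data, with results that are not given here and support no statement above. Alternatives used DESeq2 1.42.0, limma-voom, Wilcoxon tests on TPM (differences on log2(TPM + 1)), other filters and scalings, covariates, each tag series alone and each library left out. No libraries held identical values. Named genes were the 12 higher and 10 lower protein-coding genes of smallest p, up to 6 per direction in the tag series fit, up to 4 called genes per list, and set markers; others named from a list illustrate it and were chosen after their values were seen. A few genes of the lists are not reported here by name. Of 41 lists, those without a called gene and not described above held 0 calls. Depth was 37027981 to 82208651 counts per library.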

Additional observations from a re-analysis of the deposited data

Results flagged for a closer look

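Values of the 4 responders with 3-digit tags and the 7 non-responders with 4-digit tags were screened for a sample far from the rest by Dixon's test, which chance passes in about 1 of 20 groups. Of 178 screens 9 passed. Non-responder 31 was low for Epb42 (3.07 log2 CPM, against 3.79 in the nearest library), a red cell gene. It was high for Fam84a (-4.95 against -5.90), which rests on 1 count. Non-responder 17 was low for Shld1 (1.03 against 1.36), Rpl41 (7.48 against 7.97) and Cox6c (3.88 against 4.27). Non-responder 33 was low for Xist (6.22 against 7.29). Responder 12 was low for Abca5 (-3.93 against -2.34), also on 1 count, and high for Birc5 (0.12 against -1.13) and Pdcd1 (-1.94 against -3.24).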

How the results depend on the processing

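The 493 higher and 38 lower genes kept their number within 1.5 times with DESeq2, with haemoglobin genes removed before scaling and with upper-quartile scaling. As settings test different numbers of genes, each count is also given as a percent of the genes tested (3.91% higher and 0.301% lower in the first analysis). A test of all genes with at least 1 count gave 82 lower genes (0.321%) and one of genes with at least 10 counts in every library 0, limma-voom gave 13 lower (0.103%), and the tag series as a covariate 9 lower (0.0713%). The adjusted p alone gave 808 higher (6.4%) and 128 lower (1.01%). Two-sided Wilcoxon tests on TPM gave 0 higher and 1012 lower (8.02%), and one-tailed ones 0 and 1013 (8.03%). Haemoglobin share as a covariate, with or without the tag series, the 4-digit tags alone, the 3-digit tags alone, and leaving out the libraries with a TMM factor under 0.5 (added after seeing the data) each gave 0 higher and 0 lower genes. Leaving out each library in turn gave 2.43% (without responder 4) to 4.33% higher genes and 0.228% to 0.536% lower ones (68 genes without responder 12, 59 without responder 14), and a haemoglobin difference of 4.88 to 5.77 points, with p between 0.000600 and 0.00436. That difference missed the threshold among 4-digit tags (2.62 points). The count of genes whose group difference changed from Day 4 to Day 9 was 0, and 1 with log2(TPM + 1) and 1 with the tag series as a covariate. On TPM, by both Wilcoxon tests, the sign was negative against the scaled counts for Ccdc71l (-0.0486), Pim1 (-0.215), Cir1 (-0.0551), Atp5k (-0.134), S100a8 (-0.183), Stfa2l1 (-0.19), Cd36 (-0.125), Oas3 (-0.179), Oasl2 (-0.169), Cd59a (-0.0583), Jund (-0.154), Mki67 (-0.0441), Ccnb2 (-0.00198), Rpl41 (-0.11), Rpl39 (-0.246), Rps29 (-0.278), Cox7b (-0.0965), Cox6c (-0.0866), Hist3h2ba (-0.0145), Atf5 (-0.0912), Cd79a (-0.764) and Nkg7 (-0.601), where all RNA is the base and where the median of all genes is -0.27. The 1 added to each TPM shrinks these differences for genes of low TPM. The causes of the other changes were not tested. Whether the counts left outside globin limited the genes of low count was not tested. No paired analysis was possible because responders and non-responders are different mice and share no replicate number.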

Other observations

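The haemoglobin share of a mouse on Day 4 gave little information on its share on Day 9, although the groups differed on both days. Over 29 non-responders r was -0.03 (permutation test, p = 0.863) and rho -0.03 (p = 0.900), and r was 0.01 without the 2 libraries farthest from the median. Over 15 responders r was -0.37 (permutation test, p = 0.174) and rho -0.39 (p = 0.156), and r was -0.23 without the 2 farthest. The adjusted p over these 2 relations was 0.347 for responders and 0.863 for non-responders.

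Counts outside globin genes were a minor share of each library, between 4655155 and 22174654, so that libraries rich in haemoglobin had fewer counts for all other genes. The median was 8181866 in responders and 10694175 in non-responders, and the part of this in the calls of genes of low count was not tested.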
